A study of Mus musculus with 4 samples.

Results

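Expression of 9 genes for carriers of organic anions, organic cations and monocarboxylates was read from arrays of mouse kidneys, taken whole at E14.5 (Theiler stage 22). The genes were chosen by name, as carriers of the kidney tubule: Slc22a6, Slc22a8, Slc22a2, Slc22a4, Slc22a5, Slc47a1, Slc16a1, Slc16a12 and Slco4c1. They were measured by 14 of the 45101 probe sets on the array, each assigned to 1 of these genes alone. The mutant group was 2 arrays of Wnt4 null kidneys (allele Wnt4tm1Amc, stated strain 129, each array a pool of 12 kidneys). The wild-type group was 2 arrays of kidneys of stated strain CD-1, each a pool of 2 kidneys, and a protocol shared by all 4 arrays speaks of CD-1 matings only. The sex of the embryos is given as unknown, and the allele, stated strain and pool size changed together, so their effects cannot be told apart. Wnt4 is a secreted signal needed for the renal vesicle, the epithelial stage from which nephrons form, and the design compares kidneys without and with these structures.

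The proximal tubule clears drugs, toxins and waste from blood in 2 steps, uptake across the basolateral membrane and export across the luminal membrane. Slc22a6 and Slc22a8 encode the organic anion transporters OAT1 and OAT3, and Slc22a2 encodes the organic cation transporter OCT2, all for basolateral uptake. Slc47a1 encodes MATE1, a luminal exchanger that releases organic cations in return for protons. Slc22a5 (OCTN2) carries carnitine with sodium, and Slc22a4 (OCTN1) is a carrier of ergothioneine and organic cations. Slc16a1 (MCT1) moves lactate and pyruvate with protons in many cell types. Slc16a12 (MCT12) carries creatine, and Slco4c1 is an organic anion transporter known from rat and human kidney.

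Of the carriers of organic cations, both the uptake gene Slc22a2 and the export gene Slc47a1 were lower in Wnt4 mutant kidneys, as were the anion uptake gene Slc22a6 and the creatine carrier gene Slc16a12. The log2 differences were -3.37 for Slc47a1, -2.24 for Slc16a12, -2.07 for Slc22a6 and -1.10 for Slc22a2, that is 10.3-fold, 4.72-fold, 4.19-fold and 2.14-fold lower. The differences of Slc16a1, Slc22a5, Slc22a8 and Slco4c1 did not pass the test at any tested probe set, and Slc22a4 was too dim to be tested. Of the 9 member probe sets bright enough to be tested, 4 were lower and 0 higher. The mutant means of all 4 were under the filter's level of 94.2, so they were tested only through their wild-type signals, and the counts of tested members are a description. Over all 27022 tested probe sets 10.8% were called, 5.39% lower and 5.41% higher. The median log2 difference was -0.53 over the 9 member probe sets, -0.81 over the 8 tested genes at their brightest probe sets and -0.01 over all tested probe sets. With the lowest 60% of probe sets left out, 4 member probe sets were tested and these medians were -0.06, 0.09 and -0.01. Each difference is mutant minus wild-type on log2(signal + 16), tested with limma, with p-values adjusted by the Benjamini-Hochberg method over all tested probe sets and a threshold of 0.05. Because the RNA came from whole organs, fewer cells of a type and less RNA per cell cannot be told apart.

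**Figure D1:**
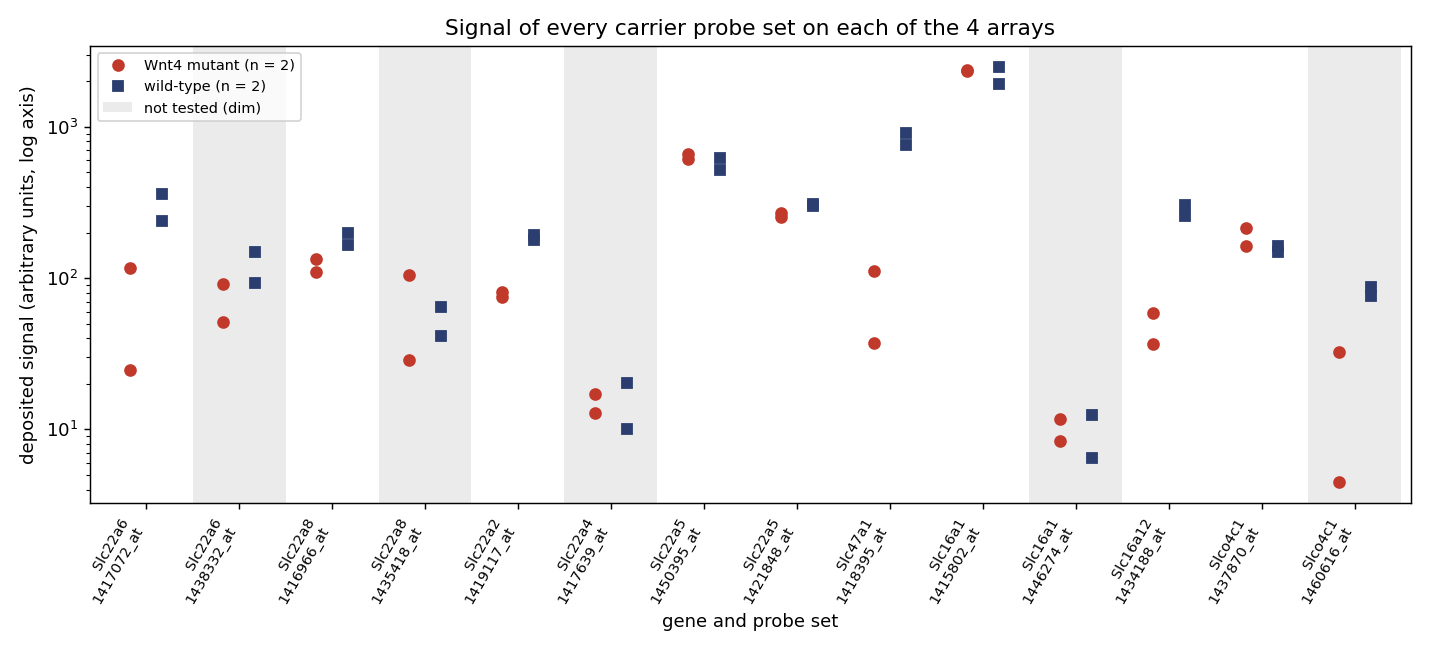
Deposited signal (log axis) of the 14 probe sets of the carrier genes on each array, with the 2 Wnt4 mutant arrays as red circles and the 2 wild-type arrays as blue squares. Grey columns mark the 5 probe sets too dim to be tested. For Slc47a1 the mutant signals were 110.6 and 37.1, against 763 and 903 in wild-type kidneys, while for Slc16a1 at 1415802_at all 4 signals lay between 1928 and 2492.

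The sequence before the start of the gene is shown for 4 carriers that had lower levels in the mutant at their brightest probe set, without overlap between groups, and for 2 whose groups overlapped there. Of the 4, Slc22a8 did not pass the test (limma adjusted p = 0.263). The mutant was lower without overlap in 28.0% of all tested probe sets, so this grouping is a loose one. Each is the 250 bases before the annotated start, on the gene's strand and 5′ to 3′, from RefSeq on build GRCm38.p6, with CG dinucleotides in capitals. The windows lie at chr19:8617746-8617995 (Slc22a6, plus strand), chr19:8592932-8593181 (Slc22a8, plus), chr17:12583939-12584188 (Slc22a2, plus), chr19:34747329-34747578 (Slc16a12, minus), chr3:104638414-104638663 (Slc16a1, plus) and chr11:53891704-53891953 (Slc22a5, minus).
Slc22a6: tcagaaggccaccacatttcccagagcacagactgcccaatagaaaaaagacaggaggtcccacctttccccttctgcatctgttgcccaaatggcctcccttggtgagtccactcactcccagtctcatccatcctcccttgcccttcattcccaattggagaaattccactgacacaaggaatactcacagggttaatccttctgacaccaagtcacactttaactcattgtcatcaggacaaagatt
Slc22a8: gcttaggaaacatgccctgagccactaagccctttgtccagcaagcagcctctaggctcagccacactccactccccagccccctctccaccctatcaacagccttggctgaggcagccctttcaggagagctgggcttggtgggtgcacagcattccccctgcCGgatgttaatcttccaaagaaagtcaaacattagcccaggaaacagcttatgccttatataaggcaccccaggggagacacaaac
Slc22a2: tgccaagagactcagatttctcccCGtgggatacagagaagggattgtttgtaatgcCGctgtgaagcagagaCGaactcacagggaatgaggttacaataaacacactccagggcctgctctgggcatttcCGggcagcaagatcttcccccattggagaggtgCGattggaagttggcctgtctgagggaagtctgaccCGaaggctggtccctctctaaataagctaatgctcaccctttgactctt
Slc16a12: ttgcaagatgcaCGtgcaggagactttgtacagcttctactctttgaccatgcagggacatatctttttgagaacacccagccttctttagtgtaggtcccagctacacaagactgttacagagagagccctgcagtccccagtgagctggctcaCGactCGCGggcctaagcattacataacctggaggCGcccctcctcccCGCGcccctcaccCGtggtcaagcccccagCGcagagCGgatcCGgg
Slc16a1: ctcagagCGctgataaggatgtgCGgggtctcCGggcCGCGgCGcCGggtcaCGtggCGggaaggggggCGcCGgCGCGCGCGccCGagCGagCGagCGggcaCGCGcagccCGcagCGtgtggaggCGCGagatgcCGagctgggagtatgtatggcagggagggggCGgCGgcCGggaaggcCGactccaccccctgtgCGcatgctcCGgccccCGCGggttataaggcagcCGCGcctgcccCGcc
Slc22a5: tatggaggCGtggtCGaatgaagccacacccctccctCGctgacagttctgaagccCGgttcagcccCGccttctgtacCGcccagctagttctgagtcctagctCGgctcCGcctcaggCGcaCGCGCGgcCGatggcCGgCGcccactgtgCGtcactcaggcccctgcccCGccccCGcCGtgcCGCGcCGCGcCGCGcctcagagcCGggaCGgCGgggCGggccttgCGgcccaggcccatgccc

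Of the 9 genes, 8 had a window in the RefSeq table, and Slc47a1, with the largest difference, had none. Their CG counts were spread widely. Slc22a6 had 0 CG dinucleotides, Slc22a8 had 1, Slc22a2 had 6 and Slc16a12 had 11. Slco4c1 had 19, Slc22a4 had 26, Slc22a5 had 30 and Slc16a1 had 37, with GC contents of 66.4% to 76.4%, against 48.4% to 57.6% in the other 4 windows. The median over 32851 windows of 27025 genes was 6, so Slc22a2 lay at the median and Slc16a12 above it, with 66.5% of windows at or below its count. The 3 members called lower that had a window, Slc22a6, Slc22a2 and Slc16a12, had at most 11 CG dinucleotides. So did Slc22a8, which did not pass the test. Of the members with at least 19, Slco4c1, Slc22a5 and Slc16a1 did not pass, and Slc22a4 was too dim to be tested. Over the 10809 tested genes that had a window, the shares called lower were close. Of 3499 tested genes with at most 11 CG dinucleotides 5.66% were called lower in the mutant, and of 4469 genes with at least 19 it was 5.75%. These class limits were set after the members' values were seen, and a gene with several windows was read at its highest count.

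**Figure D2:**
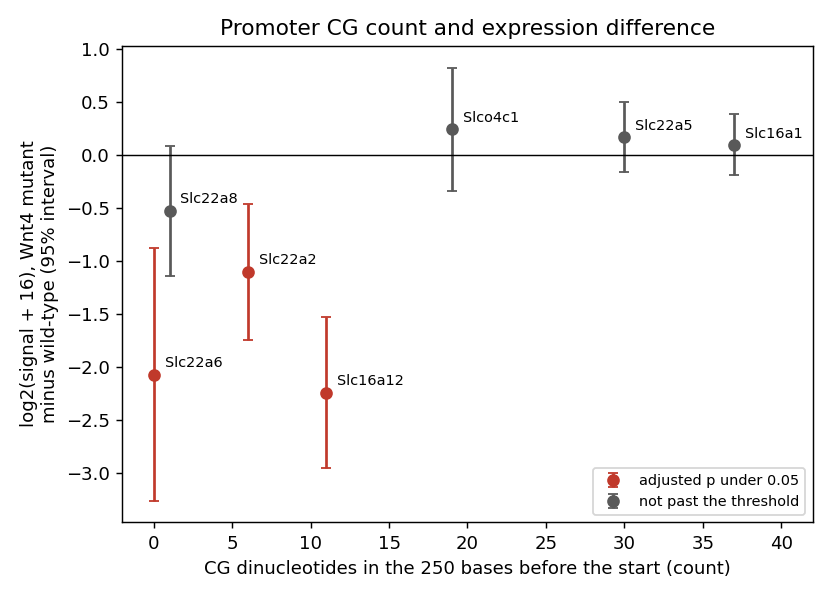
Log2 difference, Wnt4 mutant minus wild-type, at the brightest tested probe set of the 7 carriers that had both values (vertical axis, bars are 95% limma intervals), against the number of CG dinucleotides in the 250 bases before the start (horizontal axis). Genes past the threshold are red, and all those shown have at most 11 CG dinucleotides, while Slco4c1, Slc22a5 and Slc16a1 have at least 19 and intervals that span 0. Slc47a1, called lower, had no window, and Slc22a4 was too dim to be tested, so neither is shown.

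A search of both strands used 5 short motifs. The letters GTTAAT, a half-site of the HNF1 factors, were in the windows of the neighbouring genes Slc22a6 and Slc22a8, at 56 to 51 and 81 to 76 bases before the start, and in 6.43% of all windows. The letters GGNCAAAG, the core of the direct repeat bound by HNF4A, were found once each for Slc22a6, Slc22a8 and Slc16a12 and in 4.89% of all windows. In Slc22a6 this match lay 11 to 4 bases before the start. The GC box GGGCGG was in all 4 windows with at least 19 CG dinucleotides, in 0 of the 4 with at most 11 and in 32.74% of all windows. These letters hold a CG themselves, and the share is not over windows of like CG count. The split is therefore not read as a feature apart from the CG count. CCAAT was found in the windows of Slc22a6 (3 matches, 2 of them overlapping each other) and Slc22a2 (2 matches) and in 33.85% of all windows. TATAAA was in 0 of the 8 windows and in 12.37% of all.

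Organic cations leave the tubule cell through MATE1, and its gene Slc47a1 had the largest difference of the 8 tested carriers. Its single probe set, 1418395_at, had signals of 110.6 and 37.1 in mutant kidneys, against 763 and 903 in wild-type kidneys. The groups were far apart, and the mutant mean was 8.86% of the wild-type mean. The log2 difference was -3.37 ± 0.37 (SE, as after each ± here, n = 2 per group, limma adjusted p = 0.00116), the 30th lowest of the 27022 tested probe sets. It passed the threshold in all 14 alternative settings, with log2 differences from -3.99 to -2.74.

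Slc22a2, which brings organic cations into the cell and was also lower, had its call near the threshold. At 1419117_at the signals were 75.1 and 80.3 in mutant kidneys and 178 and 192 in wild-type kidneys. Replicates were close in both groups and the groups did not overlap. This gave a log2 difference of -1.10 ± 0.28 (limma adjusted p = 0.0423). Leaving out 1 array leaves a single array in its group, which is then assumed to vary like the other group's pair, and the test has fewer degrees of freedom. The call was lost when any 1 array was left out, with adjusted p-values of 0.127 and 0.0921 without mutant replicates 1 and 2, and of 0.106 and 0.129 without wild-type replicates 1 and 2. The size of the difference was steady in those fits, from -1.15 to -1.05.

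Among the organic anion carriers, Slc22a6 was lower, with widely spaced mutant replicates. At 1417072_at the signals were 24.6 and 116.4 in mutant kidneys and 237 and 357 in wild-type kidneys. Both mutant signals were below both wild-type ones, but on a log scale the mutant replicates lay farther from each other than the wild-type replicates did. The log2 difference was -2.07 ± 0.52 (limma adjusted p = 0.0400). Without mutant replicates 1 and 2 it was -1.22 and -2.92 (adjusted p = 0.0547 and 0.000987). Without wild-type replicates 1 and 2 it was -2.35 and -1.79 (adjusted p = 0.0175 and 0.0725). In all, the call was lost in 6 of 13 alternative settings, with no change of direction. The dimmer probe set, 1438332_at, had 51.2 and 91.8 in mutant kidneys against 148.8 and 92.7 in wild-type kidneys. There 1 wild-type signal was almost equal to the higher mutant one, and the probe set was too dim to be tested.

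Slc22a8, the chromosome neighbour of Slc22a6 with no coding gene between them, did not pass the test. At 1416966_at it read 110.0 and 133 in mutant kidneys and 164 and 199.9 in wild-type kidneys, without overlap. The log2 difference was -0.53 with a 95% interval of -1.14 to 0.09 (limma adjusted p = 0.263), an interval that holds both 0 and the value found for Slc22a2. Its dim second probe set, 1435418_at, had overlapping signals of 29.0 and 104.4 in mutant kidneys and 41.4 and 64.5 in wild-type kidneys.

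The 2 probe sets of Slco4c1 disagreed. The brighter one, 1437870_at, had 215 and 162 in mutant kidneys and 163 and 148.9 in wild-type kidneys. The groups overlapped there, with a log2 difference of 0.24 and a 95% interval of -0.34 to 0.82 (limma adjusted p = 0.619). At 1460616_at the signals were 4.48 and 32.4 in mutant kidneys and 76.7 and 87.6 in wild-type kidneys, with the groups apart. That probe set was too dim to be tested. In a fit with no filter its log2 difference was -1.64 with an adjusted p of 0.129 from limma, so Slco4c1 has no settled direction here.

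The carnitine carrier Slc22a5 did not pass the test at either probe set and had narrow limits. At 1450395_at its signals were 612 and 660 in mutant kidneys, against 515 and 617 in wild-type kidneys. At 1421848_at they were 252 and 269 in mutant kidneys, against 301 and 310 in wild-type kidneys. The first pair of groups overlapped and the second did not, with the mutant on the lower side. The log2 differences were 0.17 (95% interval -0.16 to 0.50) and -0.22 (-0.64 to 0.20), with limma adjusted p-values of 0.531 and 0.516. Both intervals leave out a change as large as a doubling or a halving of the level.

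Slc22a4, which lies beside Slc22a5 on chromosome 11 with Slc22a21 between them, read 12.9 and 17.0 in mutant kidneys and 10.1 and 20.3 in wild-type kidneys. The groups overlapped at 1417639_at, its single probe set, which was below the filter on dim signals. No difference could be read from it. The gene in between, Slc22a21, named for its place after its values were seen, was also too dim to be tested, with 53.4 and 50.3 in mutant kidneys and 86.6 and 104.9 in wild-type kidneys.

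Of the monocarboxylate carriers, Slc16a12 was lower and Slc16a1 did not pass the test. Slc16a12 had signals of 36.9 and 58.5 at 1434188_at in mutant kidneys and 258 and 304 in wild-type kidneys. The groups lay well apart, and the mutant mean was 17.0% of the wild-type mean. On the log2 scale the difference was -2.24 ± 0.31 (limma adjusted p = 0.00345), and it passed the threshold in all 13 alternative settings in which it was tested, with adjusted p-values up to 0.0239.

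At 1415802_at the signals of Slc16a1 were 2322 and 2359 in mutant kidneys and 2492 and 1928 in wild-type kidneys, with the mutant values inside the wild-type range. The log2 difference was 0.09 with a 95% interval of -0.19 to 0.38 (limma adjusted p = 0.706), and without wild-type replicate 2 it was -0.09 (adjusted p = 0.628). The second probe set, 1446274_at, read 11.7 and 8.39 in mutant kidneys and 6.51 and 12.5 in wild-type kidneys, too dim to be tested. The partner proteins that bring MCT1 to the membrane differed in their results. Embigin (Emb) was lower, with 898 and 906 in mutant kidneys and 1462 and 1332 in wild-type kidneys (1.54-fold, limma adjusted p = 0.00933), and without mutant replicate 1 its log2 difference was -0.61, against -0.62 with all arrays, with an adjusted p of 0.0525. Basigin (Bsg), named as the other partner after its values were seen, had 6137 and 6056 in mutant kidneys and 7018 and 6504 in wild-type kidneys (log2 difference -0.15, adjusted p = 0.297).

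**Figure D3:**
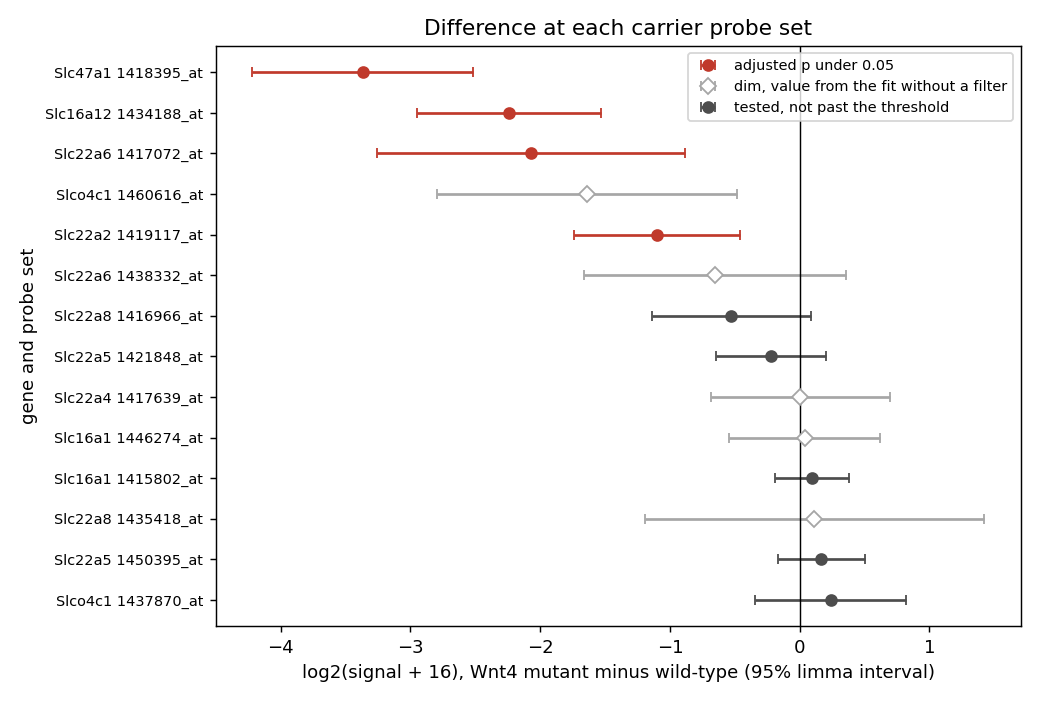
Log2 difference of log2(signal + 16), Wnt4 mutant minus wild-type, at each of the 14 probe sets of the carrier genes, with 95% limma intervals, ordered from lowest to highest. Filled circles are tested probe sets, red where past the threshold, and open diamonds are the 5 dim ones from the fit with no filter. The 4 called genes run from -3.37 for Slc47a1 to -1.10 for Slc22a2, and the intervals of Slc22a8, Slc22a5, Slc16a1 and Slco4c1 at their tested probe sets span 0.

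Over all 14 member probe sets, dim ones included, both mutant signals were below both wild-type ones in 8 and above them in 0. Over all probe sets but controls, non-overlap with the mutant lower was found in 24.0% and with the mutant higher in 22.9%. Of the 9 tested member probe sets, the mutant was lower without overlap in 6 and higher in 0, while over all tested probe sets the groups did not overlap in 54.1%, with the mutant lower in 28.0% and higher in 26.1%. Each gene was also read once, at its brightest tested probe set, and then 4 of 8 tested genes were lower (over all 13432 tested genes 5.82%), with the same limit that all 4 were tested through their wild-type signals. Without mutant replicate 1 or without wild-type replicate 2, that count was 2, with Slc47a1 and Slc16a12 past the threshold. It was 3 without mutant replicate 2 and 3 without wild-type replicate 1.

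In a wider list of carriers, pumps, partners and regulators, all calls were also in the lower direction. Of 60 further genes on the array, 32 were bright enough to be tested, and 7 of them were lower and 0 higher, with a median log2 difference of -0.36. Among the called genes only Slc22a12 and Slco2b1 encode carriers, each called at 1 of 2 tested probe sets. The others, Pdzk1, Hnf4a, Emb, Slc9a3r1 and Slc9a3r2, encode partners or regulators, so the count does not speak for carriers at large. Over all tested genes 12.5% were called, 5.82% lower and 6.70% higher. Hnf4a, a transcription factor that controls tubule carriers, had 21.9 and 134.9 at its brightest probe set in mutant kidneys, against 1591 and 1630 in wild-type kidneys (log2 difference -4.43 ± 0.52, limma adjusted p = 0.00163). Its log2 difference was -3.43 without mutant replicate 1 and -5.42 without mutant replicate 2, and all 4 of its tested probe sets were called lower. The mutant means of all 4 were under the filter's level of 94.2. They were therefore tested only through their wild-type signals, and their count is a description. Pdzk1, a scaffold that holds carriers at the luminal membrane, had 190.6 and 185.6 in mutant kidneys and 2042 and 2178 in wild-type kidneys (log2 difference -3.38 ± 0.13, adjusted p = 1.64e-05). Without the intensity trend Pdzk1 alone of the 7 was past the threshold, and Hnf4a had an adjusted p of 0.0510.

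Smaller differences were found for the NHERF scaffold genes. Slc9a3r1 had 1704 and 1564 in mutant kidneys and 2422 and 2351 in wild-type kidneys (1.46-fold lower, limma adjusted p = 0.00934), and it was called at all 3 of its tested probe sets. Slc9a3r2 had 1437 and 1253 in mutant kidneys and 2086 and 1859 in wild-type kidneys (1.46-fold lower, adjusted p = 0.0185), and it was called at 3 of 6. The urate carrier Slc22a12 had 324 and 272 in mutant kidneys and 499.8 and 579 in wild-type kidneys (1.77-fold lower, limma adjusted p = 0.0207), but its second tested probe set had overlapping groups and was not called. Slco2b1, an organic anion transporter, had 109.9 and 163 in mutant kidneys and 274 and 349 in wild-type kidneys (2.17-fold lower, adjusted p = 0.0313). The second tested probe set of Slco2b1 went the other way, with a log2 difference of 0.21 and overlapping groups, and was not called. Some of these calls were lost with 1 array fewer, while the differences at the called probe sets stayed negative. Without mutant replicate 2, Slc9a3r1 had a log2 difference of -0.48 (adjusted p = 0.0822), Slc9a3r2 of -0.45 (0.127) and Slc22a12 of -0.70 (0.0965), against -0.54, -0.55 and -0.82 with all arrays, and the count of called genes was 4. Slco2b1 had -0.87 without mutant replicate 1 (0.120) and -0.95 without wild-type replicate 2 (0.0906), against -1.12 with all arrays. The efflux pump gene Abcg2 was singled out after its values were seen, as just outside the threshold (1301 and 1227 in mutant kidneys, 1566 and 1794 in wild-type kidneys, adjusted p = 0.0507).

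**Figure D4:**
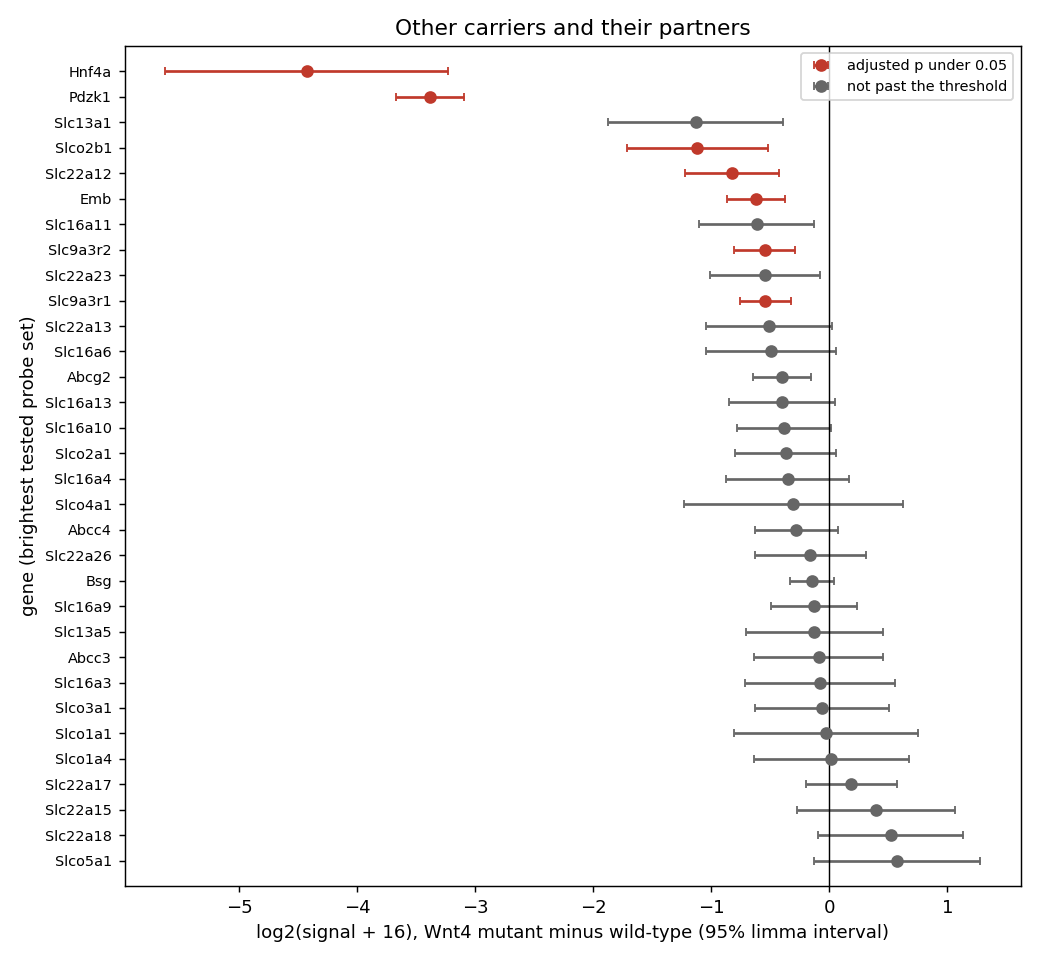
Log2 difference of log2(signal + 16), Wnt4 mutant minus wild-type, of the 32 tested further carrier, partner and regulator genes at their brightest tested probe set, with 95% limma intervals. The 7 genes past the threshold are red and all lie below 0, from -4.43 for Hnf4a to -0.54 for Slc9a3r1.

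For each of the 4 called carriers, the 2 genes with the nearest pattern over the 4 arrays were found by Euclidean distance between log2 values centred per gene. For Slc47a1 they were Cubn, the endocytic receptor cubilin (distance 0.494), and Tinag (0.560). For Slc16a12 they were Slc7a9, a subunit of an amino acid exchanger (0.155), and the tight junction gene Cldn2 (0.227). For Slc22a2 they were Adamts16 (0.0563) and Septin4 (0.0609). For Slc22a6, whose mutant replicates were wide apart, they were Hes5 (0.605) and Acaa1b (0.748). These distances, over 4 arrays in 2 groups, are a description only.

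Markers of other structures and cells moved on the same arrays. Of 12 tested proximal tubule markers 9 were lower and 0 higher in the mutant, against 5.82% lower and 6.70% higher over all tested genes. All of the 9 but Fbp1 had mutant means under the filter's level of 94.2, so those were tested only through their wild-type signals. The same held for the distal marker Sim2 and the adrenal marker Mc2r. The erythroid marker Hbb-bh1 and the muscle markers Myog and Myl1 were tested only through their mutant signals. The counts of tested markers are therefore a description. The summed signal of all proximal tubule markers on the array was 1287 to 1400 on mutant arrays and 6692 to 7032 on wild-type arrays. Among distal nephron markers 4 of 5 were lower, and among podocyte markers 4 of 4, with 0 higher in either list. The summed signals were 1103 to 1174 on mutant arrays and 4826 to 5744 on wild-type arrays for the distal nephron, and 1192 to 1389 on mutant arrays and 4152 to 4466 on wild-type arrays for podocytes. Skeletal muscle markers were higher in 7 of 9 and lower in 0, with summed signals of 8046 to 8335 on the mutant and 1512 to 2510 on the wild-type arrays. Erythroid markers were higher in 3 of 5, all 3 of them globin genes (Hba-x, Hbb-y and Hbb-bh1), while Alas2 and Slc4a1 did not pass. Sums over the erythroid list were 22820 to 23892 on the mutant and 10044 to 10266 on the wild-type arrays. Most of these sums came from Hbb-y, with 16223 and 17162 on the mutant and 7908 and 7891 on the wild-type arrays. Stromal markers were higher in 4 of 7 (52231 to 52591 on the mutant, 37231 to 40884 on the wild-type arrays). Of endothelial markers 2 of 6 were lower (5711 to 5935 on the mutant, 7342 to 7564 on the wild-type arrays), and of adrenal markers 1 of 3 (501 to 517 on the mutant, 651 to 812 on the wild-type arrays). No marker was listed at 0. The part of these cells in the carrier values was not tested.

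Wnt4 itself was lower at both of its probe sets, with 406 and 272 in mutant kidneys and 1885 and 1770 in wild-type kidneys at 1450782_at (limma adjusted p = 0.000196). The place of the probe set with respect to the targeted sequence was not examined. Of 7 tested kidney markers, Pax8 was lower, Foxd1 was higher and 5 did not pass, and the lowest of their signals was 252, for Ret. Their summed signal was 14197 to 15166 on the mutant arrays and 11525 to 13522 on the wild-type arrays. Foxd1, also in the stromal list, had 6938 and 6715 in mutant kidneys and 2028 and 2393 in wild-type kidneys. The median log2 difference of the list was -0.32, so the higher mutant sums do not show that the other markers were kept or raised. After trimming 2% at each end, the mean signal was near 500 on all 4 arrays, and the median signal was 137.5 and 159.3 on the mutant and 150.9 and 148.9 on the wild-type arrays.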

How the data were processed

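RNA of 4 pools of E14.5 kidneys was amplified in a single round and hybridised to Affymetrix Mouse430_2 arrays, per the labels' protocols. The authors deposited a linear signal intensity for each probe set. GCOS is the one tool named in the submitters' processing notes, while no source used here gives the summary algorithm or the scaling target. Near-equal trimmed means show that arrays were scaled before deposit. Detection calls were not used, so low signals have no stated limit, and the number of arrays limits the precision.

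Values were taken as log2(signal + 16), which understates changes of dim genes. The 64 control probe sets and the lowest 40% by mean were left out, which removed everything whose log2 mean, turned back into signal, was below 94.2. limma 3.58.1 in R 4.3.3 (lmFit, eBayes with an intensity trend, two-sided) was fitted to the other 27022 and was tested on simulated data. For 2 against 2 arrays, 0.33 is the lowest two-sided p of an exact permutation. The labels call the pools biological replicates without naming litters. The p-values reflect the spread between arrays of separate pools, with each variance drawn by limma toward that of probe sets of like signal. Spread between single embryos was not measured. Genes came from the platform table, with 34754 of 34958 single-gene probe sets matched to RefSeq by identifier and 0 symbols changed. By the rule for naming genes, all 9 members were named at every probe set, together with each gene of the wider list past the threshold. The members and lists were chosen with earlier results of these data known. Same-numbered arrays did not deviate together (r = -0.02 over probe sets, 2 pairs), so the replicate number is an alternative only. The other alternatives were quantile normalization, median centring, other pseudocounts, filters and variance models, leaving out probe sets whose names end in _x_at or _s_at, gene means, and leaving out each array.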

Additional observations from a re-analysis of the deposited data

How the results depend on the processing

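The calls of Slc47a1 and Slc16a12 held in every alternative in which they were tested, while those of Slc22a6 and Slc22a2 each missed the threshold in 6 of 13. With no filter 2 member probe sets and 2 member genes were called, against 4 and 4. With the lowest 60% left out 1 and 1 were called, since 4 member probe sets were then tested. Without the intensity trend 858 of all probe sets were called (433 lower and 425 higher, against 1457 and 1463). Of the wider list 1 gene was then called, the scaffold gene Pdzk1. Slc22a6 missed the threshold with a pseudocount of 1 (adjusted p = 0.0519), no filter (0.107), no trend (0.157) and a robust fit (0.0648), and Slc22a2 with no filter (0.113). The log2 difference was -2.41 with a pseudocount of 1 and -1.49 with 64 for Slc22a6, and that of Slc16a12 was -1.63 with 64. With the replicate block 2913 probe sets, 3 member genes and 7 genes of the wider list were called. Slc22a2 alone of the members was lost (limma adjusted p = 0.0547). Leaving out each array gave 1479 to 3927 called probe sets, 2 to 3 member probe sets, 2 to 3 member genes and 4 to 8 further carriers, with the lone array of a group assumed to vary like the other group. The single change of sign was that of Slc16a1, which was not called and whose log2 difference was -0.0902 without wild-type replicate 2 and 0.278 without wild-type replicate 1. With arrays centred on their medians the prior degrees of freedom were 35.4, against 6.16, and the adjusted p of Slc22a6 was 5.51e-05. Unless stated, the cause of a change was not tested. Signals near the bottom of the scale limit the sizes of the falls in Slc47a1, Slc16a12 and Slc22a6.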

Other observations

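Of the 28 further carriers too dim to be tested, 9 had both mutant signals below both wild-type ones at their brightest probe set. For Slc13a2 and Slc22a7 both mutant signals were above both wild-type ones. The mutant was lower without overlap in 24.0% of all probe sets but controls, a share that is not one of dim probe sets alone. Of the 9, 2 with wild-type signals above 100 were chosen after their values were seen. Slc5a8, a sodium-coupled carrier of lactate and other monocarboxylates, had 24.0 and 13.1 in mutant kidneys and 276 and 350 in wild-type kidneys. With no filter its log2 difference was -3.26 (limma adjusted p = 0.0073). Slco1a6, an organic anion transporter, had 72.9 and 20.6 in mutant kidneys and 137 and 211 in wild-type kidneys (log2 difference -1.71, adjusted p = 0.136).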
